A study of Mus musculus with 5 samples.

Results

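The mouse genes Krtap16-1, Nuak1, Prss36, Man1c1, Tecr, Hlcs, Btbd17 and Erg hold or lie closest to the highest scoring NEUROD2 binding sites of postnatal day 0 cortex. They are 8 of the 21938 protein-coding genes of the GENCODE M21 annotation, and their sites are 8 of the 2071 deposited sites and 8 of the 10 with the highest deposited scores. Cortex of untreated BALB/c pups, pooled from littermates, was immunoprecipitated with 3 antibodies against NEUROD2, with 1 library each. Each library was compared with a GFP antibody library from the same kind of tissue when peaks were called, so that every score below is already relative to that control. The GFP library and an input DNA library have no peak list and were not analysed further here. The 8 sites were chosen by the deposited score, which at all 8 equals the sum of the peak scores of the 3 antibodies in the site, and a peak score is the peak caller's p-value as a negative log10 multiplied by 10. Scores, and the widths and peak numbers that move with them, are therefore given as a description with no test, and the antibodies serve as the replicates. Whether each antibody was used on its own pool of cortices is not clear from the sources used here, so the SD over antibodies may hold differences between antibodies, pools or both.

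NEUROD2 is a basic helix-loop-helix transcription factor of excitatory cortical neurons. Such factors bind DNA as dimers at the E-box, a site with the letters CANNTG that is palindromic in its outer letters. Proteins of the NEUROD and neurogenin families are known for binding E-boxes with GA or GC in the middle. In the cortex NEUROD2 is known for its part in the growth of dendrites and in the formation of synapses. Of the 8 genes, Nuak1 encodes a kinase of the AMPK-related family that acts in the branching of cortical axons. Krtap16-1 belongs to the keratin-associated proteins of the hair shaft, and Prss36 encodes a secreted serine protease. Man1c1 is a Golgi mannosidase that trims N-glycans, Tecr is the last enzyme of the fatty acid elongation cycle, and Hlcs attaches biotin to carboxylases. Erg is an ETS family transcription factor of endothelial and blood cells, and Btbd17 encodes a protein with a BTB domain.

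The sequences below show where E-boxes were densest in 6 of the sites. They are shown so that the tandem arrays of E-boxes at Tecr and Krtap16-1 can be read beside other sites. Each is the 200 bp window with the most E-boxes, read 5′ to 3′ on the plus strand of GRCm38 (mm10) from RefSeq, with E-boxes in capitals. These 6 windows lay wholly under peaks of all 3 antibodies. Windows of Prss36 and Hlcs are not shown, and that of Hlcs was wholly covered by 1 antibody. The first holds 17 E-boxes, 15 of them in a tandem array, and the next holds 7 E-boxes in a longer repeat unit inside a coding exon, whereas the other four hold 3 to 5 E-boxes without such an array.
Tecr, chr8:83584866-83585065: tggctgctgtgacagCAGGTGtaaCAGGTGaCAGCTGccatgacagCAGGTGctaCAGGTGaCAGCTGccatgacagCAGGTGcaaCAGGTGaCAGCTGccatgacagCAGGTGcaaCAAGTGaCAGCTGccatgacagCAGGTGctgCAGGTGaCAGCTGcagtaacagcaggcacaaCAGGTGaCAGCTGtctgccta
Krtap16-1, chr11:99986126-99986325: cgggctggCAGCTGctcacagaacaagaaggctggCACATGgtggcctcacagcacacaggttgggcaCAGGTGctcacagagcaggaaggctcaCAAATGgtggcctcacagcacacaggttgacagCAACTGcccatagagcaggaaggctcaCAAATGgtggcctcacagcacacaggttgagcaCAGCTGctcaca
Man1c1, chr4:134580628-134580827: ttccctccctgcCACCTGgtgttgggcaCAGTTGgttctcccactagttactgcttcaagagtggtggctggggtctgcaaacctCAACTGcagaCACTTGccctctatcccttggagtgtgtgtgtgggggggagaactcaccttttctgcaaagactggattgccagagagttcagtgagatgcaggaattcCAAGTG
Nuak1, chr10:84358077-84358276: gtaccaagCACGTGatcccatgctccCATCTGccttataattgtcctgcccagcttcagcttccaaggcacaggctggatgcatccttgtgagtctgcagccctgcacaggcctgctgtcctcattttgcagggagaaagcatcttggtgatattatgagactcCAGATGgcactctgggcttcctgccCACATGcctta
Btbd17, chr11:114795331-114795530: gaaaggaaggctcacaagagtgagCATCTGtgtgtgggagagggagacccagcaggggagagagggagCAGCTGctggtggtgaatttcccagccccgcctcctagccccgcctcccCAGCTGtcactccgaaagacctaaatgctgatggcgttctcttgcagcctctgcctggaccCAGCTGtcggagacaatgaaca
Erg, chr16:95390823-95391022: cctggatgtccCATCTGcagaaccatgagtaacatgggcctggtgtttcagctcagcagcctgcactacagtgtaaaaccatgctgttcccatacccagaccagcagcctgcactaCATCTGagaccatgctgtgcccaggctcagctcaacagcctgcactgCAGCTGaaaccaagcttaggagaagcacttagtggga

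Among the deposited sites, that of Krtap16-1 had the highest score of each antibody taken alone. Its peaks scored 3100 with antibody 1, 3100 with antibody 2 and 2239.73 with antibody 3, which sum to the deposited 8439.73. A score of 3100 was the highest in any list and was given to 3 peaks of antibody 1 and 3 of antibody 2, so the order among them cannot be read. Of these, 1 peak of each antibody was in the Krtap16-1 site, and the others lay outside the deposited sites. The site closest to Nuak1 came next by deposited score with 2316.25, 2797.34 and 1252.57 for antibodies 1, 2 and 3, and its ranks among the deposited sites were 2, 3 and 4 (mean 3.0 ± 1.0, SD, n = 3 antibodies). In the full peak lists of antibodies 1, 2 and 3 its peaks ranked 5, 6 and 4. The highest peaks at Prss36 scored 1839.89, 2977.21 and 1345.60, and those at Man1c1 scored 2126.63, 2224.87 and 1318.23. Both ranked from 2 to 6 with every antibody.

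The ranks of the lower 4 sites varied more with the antibody than those of the upper 4. The sites are ordered by the sum of these same scores, and ranks near the top have less room to vary. The spread of ranks is therefore not a measure of how well the antibodies agreed at a site. At Tecr the scores were 1933.70, 1840.75 and 1236.59, and antibody 1 gave the highest. The ranks there were 4, 16 and 5, or 8.33 ± 6.66. At Hlcs they were 1168.62, 2380.24 and 1046.29, with ranks 33, 4 and 7, or 14.7 ± 15.9. This was the widest spread of the 8, and without antibody 2 the site stood at rank 19 by the summed score of the other two antibodies. Btbd17 had 1409.33, 2272.58 and 859.57 (ranks 17, 5 and 12), and Erg had 1698.77, 1824.97 and 866.70 (ranks 8, 18 and 11). Tecr stood above Erg with every antibody, while the order of the other pairs among these 4 sites changed with the antibody.

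Antibody 2 gave the highest peak at 6 of the 8 sites, against 85.1% of all deposited sites, and antibody 3 the lowest at 8 of 8, against 82.1%. The median over the 8 sites was 1887 for antibody 1, 2326 for antibody 2 and 1245 for antibody 3, beside 167, 298 and 101 over all sites. The lists held 5202, 11196 and 3164 peaks, and the number of reads behind them is unknown.

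**Figure D1:**
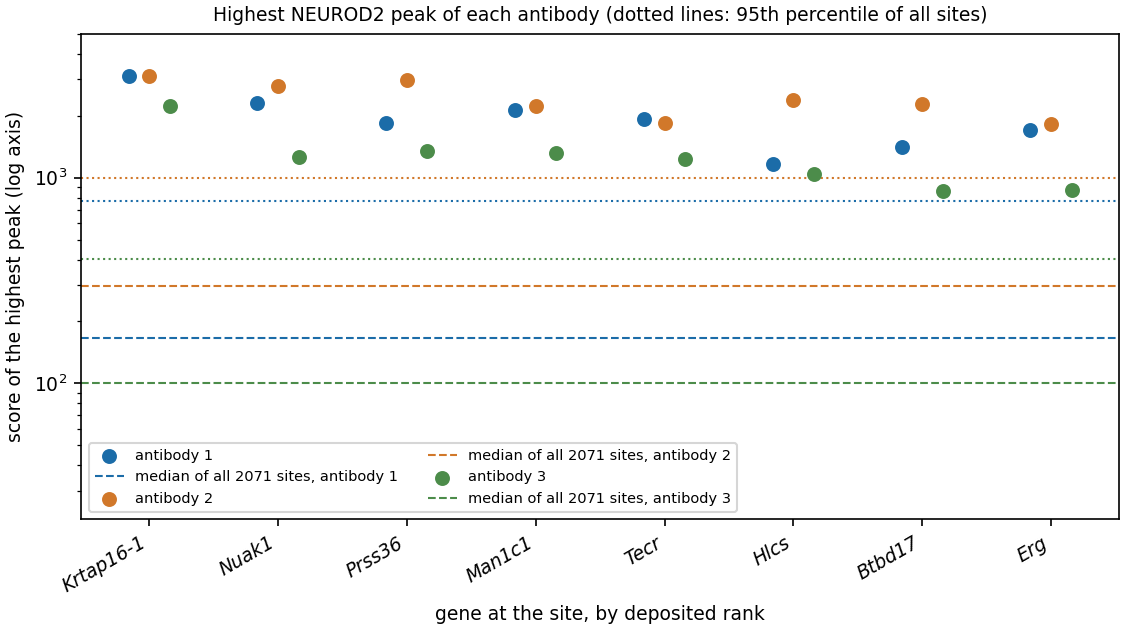
Score of the highest peak of each antibody (log axis) at the site of each gene, 1 point per antibody, with the median (dashed) and 95th percentile (dotted) of all 2071 sites. All points lie above the 95th percentile of their own antibody, and antibody 3 is the lowest of the 3 at every site.

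The lowest of the 8 sites, that of Erg, had a deposited score of 4390.44 and rank 10. The next sites down were the promoter of Tfap4, which encodes another helix-loop-helix factor that binds E-boxes, with 4293.51, and that of Slc35c2 with 4257.65. The other two of the 10 highest sites were an intergenic one on chromosome 12 with 5018.18 (rank 5) and one in an intron of Stim1, the calcium sensor of the endoplasmic reticulum, with 4889.58 (rank 7).

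E-boxes were packed most densely at Tecr. Its 575 bp site held 20 of them, or 34.8 per kb, and the median over all sites was 8.28 per kb. Of these, 16 lay in the central 200 bp. Only 4 of the 2071 sites had more E-boxes in their densest 200 bp than the 17 found here. The reference sequence repeats itself every 31 bp over 174 bp, from 83584866 to 83585039 on chromosome 8, which gives 5.61 copies, and 90.2% of the bases in this array equal the base one period away. The array holds 15 of the E-boxes, and 17 of the 20 in the site have another one exactly 31 bp away. The unit carries CAGGTG and CAGCTG, and over the whole site there were 11 of the first form, counted on either strand, 6 of the second and 1 of CAGATG.

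The site of Krtap16-1 was the longest of the 8 and also contained a repeat. It spanned 1593 bp with 27 E-boxes, or 16.9 per kb, and the repeat unit of 60 bp ran for 4.6 copies over 276 bp, from 99986127 to 99986402 on chromosome 11. Bases there equalled the base one period away in 81.0% of positions, and 10 of the 27 E-boxes had another 60 bp away. The array lay towards one end of the site, and the central 200 bp held 2 E-boxes, the median of all sites. The forms were 8 CAGCTG, 7 CAGATG and 2 CAGGTG. In the other 6 sites no E-box had another one at the best period. At Erg that period was 12 bp, whereas 2 of its E-boxes lay 47 bp apart, each after nearly the same letters. A share taken at a fixed period over a whole site can miss such copies.

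Over the whole site, 45.3% of bases at Krtap16-1 and 44.7% at Tecr equalled the base one period away, and the other 6 sites ranged from 29.3% to 33.5%. A share of at least 40%, a limit set after the values were seen, was thus met by 2 of the 8 sites, against 7.73% of all deposited sites. Of the 24 sites with the highest scores, these 2 included, 5 met it, or 20.8%. The median over all sites was 32.5%, so the other 6 were near or below it. Of the 2071 deposited sites, 7 others carry the symbol of a keratin-associated gene, for 6 genes, with scores from 213.61 to 1096.90, and all 7 had a share above 40%, from 51.6% to 86.3%. They were looked up after the site of Krtap16-1 had been seen, and whether the family holds more sites than others was not tested.

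**Figure D2:**
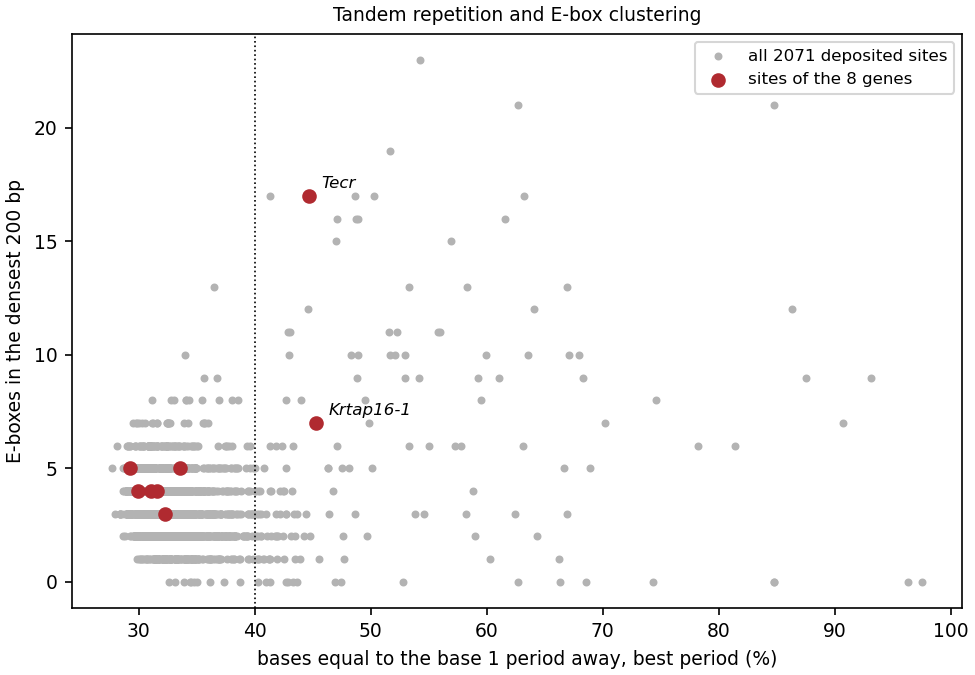
Share of bases equal to the base 1 period away at the best period (%, x axis) against the number of E-boxes in the densest 200 bp (y axis), for all 2071 sites in grey and the sites of the 8 genes in red. Tecr, with 17 E-boxes, and Krtap16-1, with 7, lie right of the 40% line, and the other 6 genes lie left of it with 3 to 5 E-boxes.

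The 8 sites together held 32 E-boxes in their central 200 bp, or 20.0 per kb, beside 12.2 per kb over all sites. In flanks from 2000 bp beyond each edge the rate was 6.88 per kb for the 8 sites and 5.74 per kb for all. The Tecr site held 16 of the 32, and without it the rate was 11.4 per kb. Without Tecr and Krtap16-1 it was 11.7 per kb. More E-boxes in the centre than in the mean flank were found at 6 of the 8 sites, against 69.6% of all sites. The exceptions were Prss36, with 0 in the centre and 2 in the mean flank, and Erg, with 2 and 2.5. Man1c1 and Btbd17 each had 4 in the centre, Nuak1 had 3 and Hlcs had 1.

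CAGCTG made up 27 of the 99 E-boxes in the 8 sites, or 27.3%, beside 21.5% over all sites. At least 1 CAGCTG was present in 7 of the 8 sites, against 60.5% of all sites, and Nuak1 was the site without one. CAGATG made up 19.2%, beside 27.2%, and CAGGTG 20.2%, beside 15.0%, of which 11 of 20 were at Tecr. Without Tecr and Krtap16-1 the 3 forms numbered 13, 11 and 7 of 52 E-boxes. These counts come from the reference sequence and carry no sampling error, and a match is a description of the letters, not a binding site shown by experiment.

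**Figure D3:**
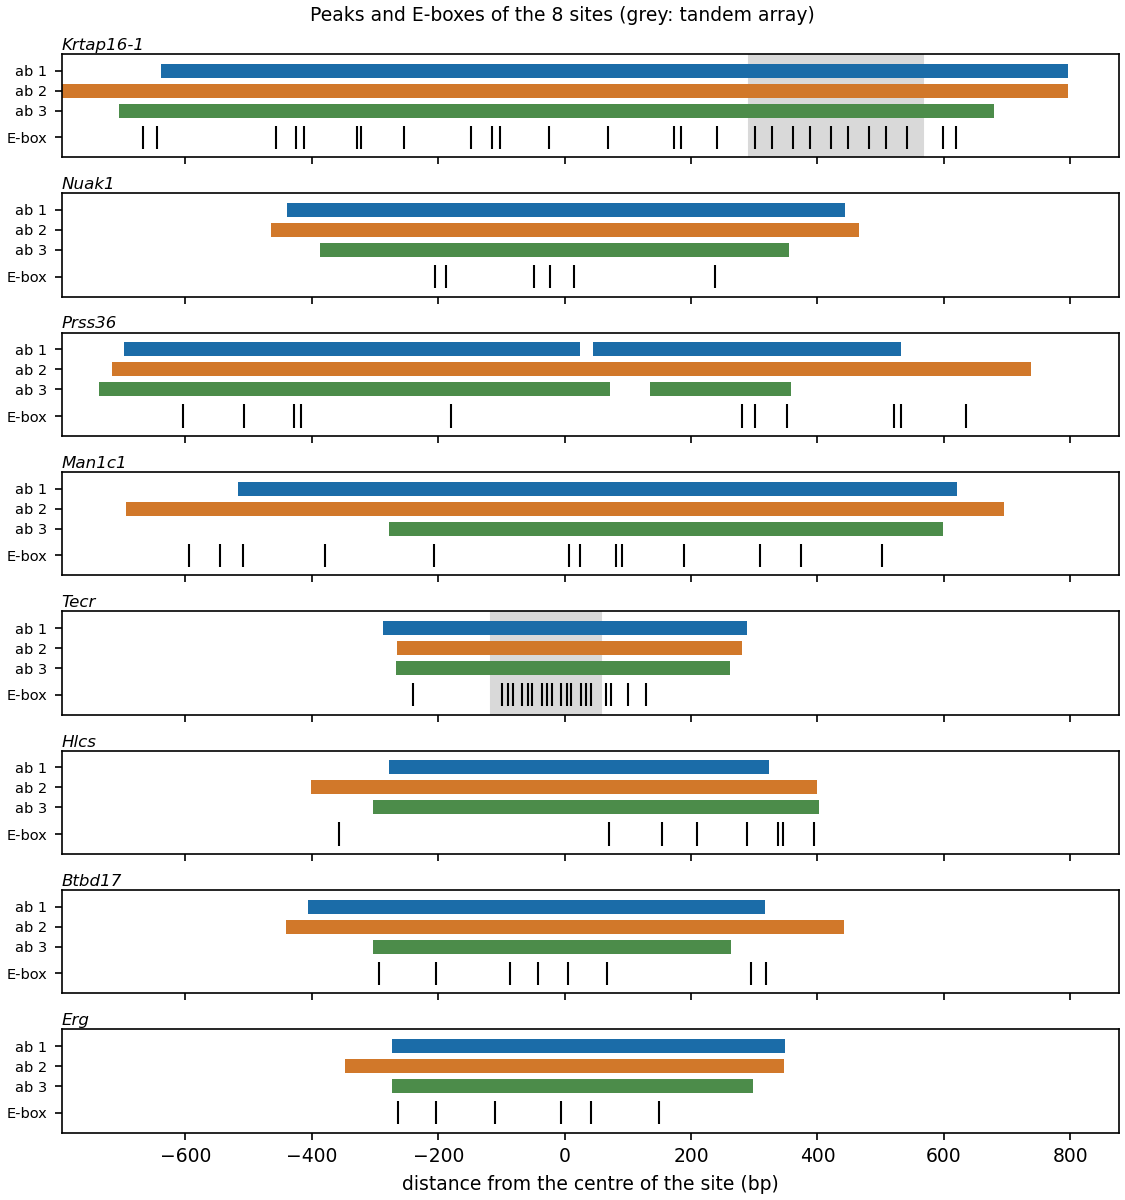
Extent of the peaks of antibodies 1, 2 and 3 (coloured bars) and positions of E-boxes (black ticks) by distance from the centre of each site in bp, with the tandem arrays in grey. The ticks crowd in the array at Tecr, run along the whole site at Krtap16-1, and are spread out at the other 6 sites.

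The 8 sites were wide, with a median of 907 bp beside 528 bp over all sites, and ranged from 575 bp at Tecr to 1593 bp at Krtap16-1. All 8 had a peak of every antibody, which the rule required, and 16.5% of the 12637 regions made by merging the 3 lists did. Exactly 1 peak of each antibody was found in 7 of the 8 sites, against 92.2% of all sites. The exception was Prss36, where antibodies 1 and 3 each had a second peak, with scores of 141.22 and 58.52, beside a single peak of antibody 2 over 1454 bp. The midpoints of the highest peaks there were 348 bp apart, while at the other 7 sites they lay 10.5 to 159.5 bp apart. The median was 47.8 bp for the 8 sites and 64.5 bp for all. The part of a site under peaks of all 3 antibodies ranged from 63.1% at Man1c1 to 91.7% at Tecr, with a median of 77.2%, beside 53.9% over all sites. Antibody 2 had the broadest coverage at 7 of these sites, and at Tecr that of antibody 1 was broader, 575 bp beside 546 bp.

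Protein-coding sequence lay under 4 of the 8 sites, against 17.4% of all deposited sites. At Krtap16-1, a gene of a single exon on the minus strand of chromosome 11 from 99984710 to 99986597, the coding sequence filled 1506 of the 1593 bp. The deposited table calls this site a promoter because its midpoint is 762 bp from the TSS, which is within the 1000 bp limit. The site at Prss36, on chromosome 7 from 127935319 to 127936794, covered 775 bp of coding sequence. Its midpoint lay in intron 8 of the 15-exon transcript and 10668 bp from the start of the gene, and it is named a promoter in the table. The closest TSS, 40 bp away, was of a Prss36 transcript with a retained intron, and the closest of a protein-coding transcript was 607 bp away.

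The site at Man1c1, on chromosome 4 from 134579941 to 134581329, is placed in an exon by the table. It covered 118 bp of coding sequence, and its midpoint was in intron 7 of the 13-exon transcript. The closest TSS was that of the microRNA gene Mir6403 at 12784 bp, and the closest protein-coding one was that of Selenon at 28469 bp. At Btbd17 the site ran from 114795003 to 114795886 on chromosome 11 with 85 bp of coding sequence, and its midpoint was in the first intron, 428 bp from the closest TSS of the gene.

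The other four sites held no coding sequence. The Hlcs site, on chromosome 16 from 94313193 to 94313996, lay across the start of the gene with its midpoint 24 bp from a TSS. It had the highest GC content of the 8, at 62.8%, and a ratio of observed to expected CpG of 0.81, beside a median of 0.30 over all sites. The Tecr site, on chromosome 8 from 83584695 to 83585269, was in intron 1. It was 543 bp from the TSS of Gm45823, a non-coding transcript inside Tecr, and 9447 bp from the closest protein-coding TSS of Tecr. An exon of a non-coding transcript covered all 575 bp. The Erg site, on chromosome 16 from 95390600 to 95391295, was in intron 4 of the longest protein-coding transcript. The closest TSS was that of the antisense transcript Gm31641 at 35272 bp, and the closest protein-coding one, of Erg, was 68297 bp away. The Nuak1 site, on chromosome 10 from 84357828 to 84358757, was intergenic. It lay 12147 bp beyond the 3′ end of Nuak1 and 34095 bp from the closest TSS, which was also of Nuak1. A TSS within 1000 bp was thus found for 5 of the 8 sites, against 31.1% of all sites. All 8 genes are on the minus strand, where 50.1% of the protein-coding genes lie.

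Neighbouring neuronal genes were taken from a list. Of its 289 genes of axon guidance, synapse, channels, receptors, neuronal cytoskeleton, signalling and transcription, a listed gene lay within 100 kb of 2 of the 8 sites, against 9.51% of all sites. These were Nuak1 itself, the single protein-coding gene within that distance of its site, and Gipc1, a PDZ scaffold of receptor trafficking, 67407 bp from the Tecr site. Within 250 kb, 5 of the 8 sites had a listed gene, against 14.6% of all sites, and these genes included Stmn1, a regulator of microtubules in growing neurons, at 106097 bp from the Man1c1 site, and Sim2, a helix-loop-helix factor, at 186160 bp from the Hlcs site. Of these 4 genes, Nuak1 and Stmn1 hold deposited sites of their own in the table. Nuak1 has one in an intron with a score of 711.85, 29276 bp from the intergenic site. Stmn1 has one at its promoter with a score of 516.63 (rank 1193), and a neighbour under the symbols of Stmn1 and Gm23634 with 451.90 (rank 1371).

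The number of protein-coding genes within 100 kb ranged from 1 at Nuak1 and 2 at Erg to 12 at Krtap16-1 and 13 at Prss36, with a median of 6 beside 2 over all sites. At Krtap16-1 the 12 genes were 6 of the keratin-associated family, 5 keratins and Gm11565, and none of them is on the neuronal list. The Prss36 site lay among Prss8 and Prss53, which encode other serine proteases, and Kat8, Bckdk and Vkorc1 were also nearby. The Erg site had Kcnj15, a potassium channel gene that is not on the list, 90339 bp away.

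Weaker peaks lay around all 8 genes. Within 100 kb of the 8 genes there were 91 peaks, of which 26 were in the sites described and 65 outside them. All 8 genes have a deposited site within 100 kb by the rule, which 23.4% of protein-coding genes have. Of the 65 further peaks, 24 were in regions with antibody 2 alone, 3 with antibody 1 alone and 0 with antibody 3 alone, and 25 were in regions shared by all 3. The share in regions with antibody 2 alone was thus 36.9%, beside 33.7% of the 19562 peaks of the 3 lists, and the share in regions of all 3 was 38.5%, beside 33.0%. The median protein-coding gene had 2 peaks of any antibody within this distance, and the 95th percentile was 11.

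Nuak1 had the most, with 6 peaks of antibody 1, 10 of antibody 2 and 3 of antibody 3. All but 2 of its 16 further peaks lay inside the gene, and the highest scored 366.83. Man1c1 had 3, 11 and 3, with the highest further score, 312.72, at the promoter of Stmn1. Hlcs had 3, 7 and 2, including a deposited site of 619.19 in the gene 24261 bp from the first. Krtap16-1 had 4, 3 and 3, and its further deposited sites were a pair at Krtap9-5 with 1096.90 and 673.46, about 36401 to 37001 bp away. Prss36 and Tecr each had 2, 6 and 2, and no further deposited site. The highest further peak at Prss36 scored 93.81 and that at Tecr 188.91. Btbd17 had 2, 3 and 2, with an intergenic site of 631.42 at 27448 bp. Erg had 2 of each antibody, with an intergenic site of 818.38 at 49463 bp and the highest further peak of the 8 genes within this distance, 476.42.

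**Figure D4:**
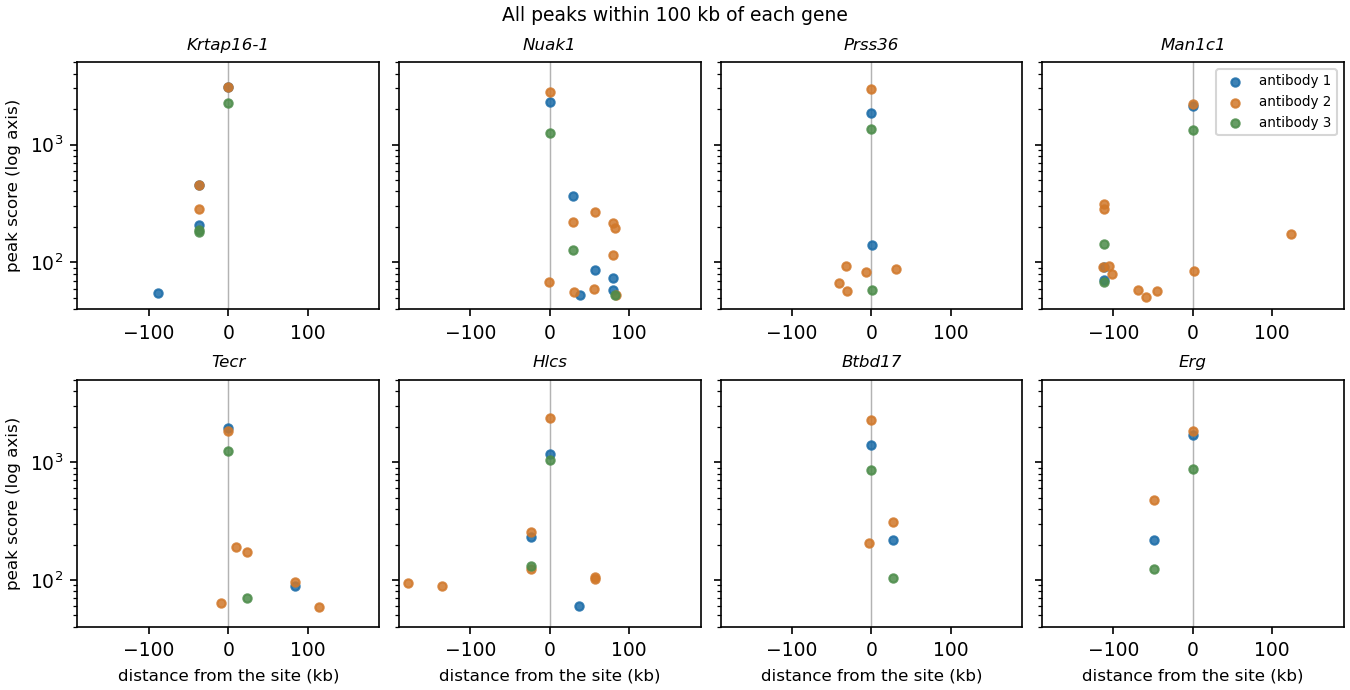
Score of every peak within 100 kb of each gene (log axis) by distance from the centre of its highest site in kb, coloured by antibody. At each gene the highest peak of each antibody lies in the site at distance 0, and no peak outside the site exceeds 476.42.

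Sequence that occurs more than once in the genome can gather reads from several places. No word of 50 bases, the read length, occurred elsewhere in the genome for 7 of them, and the exception was Erg, where 15 of 647 words did, or 2.32%. Such words were present in 1 of the 8 sites, against 8.93% of all sites. The sites of Tecr and Krtap16-1 had none elsewhere, also with 36-base words. Within a site, 22 words of 36 bases recurred at Krtap16-1, 12 at Erg and 0 at Tecr, and no word of 50 bases did at these 3. Soft-masked repeat sequence made up 6.65% to 17.0% of the 8 sites, with a median of 11.7% beside 7.73% over all sites. GC content ranged from 47.8% at Nuak1 to 62.8% at Hlcs. A CTCF core with at most 1 mismatch, searched on both strands, was present at Man1c1 and Hlcs, that is in 2 of the 8 sites, against 15.5% of all sites. Whether the tandem repetition at Tecr and Krtap16-1 had a part in their scores was not tested.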

How the data were processed

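Bowtie was used by the authors to align the NEUROD2 and GFP libraries of postnatal day 0 cortex to mm10. MACS then found peaks of each antibody relative to GFP. The deposited score of a peak is its p-value as a negative log10 multiplied by 10, and the authors kept sites with overlapping peaks of all 3 antibodies. Per the file headers the score of a site is on the same p-value scale, and the sources used here do not say how the 3 antibodies were combined in it. Read depth is not given in the sources used here, so no counting error could be attached to a score. The 3 peak lists were merged where peaks shared at least 1 bp, and adding up peak scores gave the deposited value, within 0.011, at 8 of 8 sites of the listed genes and at 2051 of 2071 sites.

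For each listed gene the highest deposited site under its symbol was taken, or the highest without a gene for which it had the closest protein-coding TSS. E-boxes were counted once per position in RefSeq GRCm38.p6. GENCODE M21 gave TSSs, exons and genes, and distances to genes were limited to 100 kb. Tandem share was the best over periods from 1 to 100 bp, and an array was the stretch in which it was at least 80%. The genes named were the 8, the gene of the closest TSS, listed neuronal genes nearby, and the sites around the 10 highest, and other genes in the text were chosen after their values were seen. The genes and the list of 289 neuronal genes were chosen with earlier results of these data known. Not every neighbouring gene is reported here. No test was made. Alternatives changed the score, antibodies, window, distance, peak minimum, overlap, word length and motif mismatches. Python 3.11.15, pandas 2.3.3, numpy 2.4.6, scipy 1.17.1 and pysam 0.24.0 were used, and the counting functions were tested on simulated data.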

Additional observations from a re-analysis of the deposited data

How the results depend on the processing

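Of the 8 sites, 3 stayed among the 10 highest when the deposited score was divided by the length of the site, and 6 to 7 when each antibody was left out in turn. Divided by length, Krtap16-1 came to rank 22, where 2 of its peaks are at the 3100 limit and its true rank may be higher. Prss36 moved to 46, Man1c1 to 56, Btbd17 to 26 and Hlcs to 14, while Nuak1 (7), Tecr (2) and Erg (9) stayed in. With 2 antibodies the lowest ranks were those of Hlcs, 19 without antibody 2, Btbd17, 14 without antibody 2, and Erg, 13 without antibody 1. The central E-box rate of 20.0 per kb was 20.0 to 20.62 when each antibody was left out, 11.86 over whole sites, and, in settings added after seeing the data, 11.67 without Krtap16-1 and Tecr and 11.43 without Tecr. Within 200 kb the highest peak outside the site rose to 1114.96 at Man1c1. With peaks scoring at least 100, 57 of the 91 peaks around the genes remained. Words of 36 bases found 2 sites with a copy elsewhere in place of 1, adding Prss36. A listed neuronal gene lay within 250 kb of 5 sites (against 14.6% of all sites) in place of 2, and with no mismatch 0 sites had a CTCF core in place of 2. In all, 15 alternative values, including the flank rate and the peak number within 50 kb and 200 kb, lay within 1.5 times the reported count or, for E-box rates, within a Poisson interval used only as a yardstick. Scores are p-values and grow with depth, which is unknown here, so a score is not a measure of occupancy.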
